A study of Mus musculus with 15 samples.

Results

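The genes described here encode 9 neuronal RNA-binding proteins: the 3 Rbfox genes (Rbfox1, Rbfox2 and Rbfox3), Nova1 and Nova2, the 3 neuronal Elavl genes (Elavl2, Elavl3 and Elavl4) and Celf4. They were chosen by gene name, by a rule that uses no measured value but was written with earlier results of these data known, and all 9 were among the 37310 genes of the count table and among the 18008 that passed the filter on low counts. RNA came from the hippocampus of male wild-type C57BL/6J mice of 2 months that had all been handled for several days. Mice of the FC group had undergone contextual fear conditioning, a single 2-s foot shock of 1.5 mA in a training chamber, and tissue was taken 30 min later. Mice of the RT group were trained in the same way and returned 24 h later for a retrieval test of 5 min, and tissue was taken 30 min after that test. Mice of the CC group were handled, received no training, and were dissected at a matching clock time. Each group had 5 libraries, numbered 3, 5, 6, 7 and 8, and a library is written here as its group and number (FC3). The sources differ on how many animals stood behind a group, so n counts libraries, and the p-values rest on the spread between these libraries. In the main model, described below, this is only the spread left after factors of unwanted variation, estimated from the same libraries, are taken out.

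Proteins of these families bind short sequence elements in precursor and mature mRNA. Rbfox proteins bind UGCAUG, in introns, where they promote or repress inclusion of a nearby exon depending on the side on which they sit, and in 3′ untranslated regions. Nova proteins bind clusters of UCAU-like elements and control alternative exons of synaptic transcripts. The neuronal Elavl (Hu) proteins bind U-rich and AU-rich elements and stabilize many neuronal mRNAs, and Celf4 binds the 3′ untranslated regions of many mRNAs of excitatory neurons. RBFOX3 is the antigen of the NeuN antibody, a standard stain for neurons. The values below are of the mRNAs of these proteins, counted over whole genes, so that neither their own splice forms nor the splicing of their targets was measured.

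Members of a family are similar in sequence, and reads of 100 bases were kept only where they mapped to a single place. The longest identical stretch of coding sequence between 2 members of a family ran from 14 to 29 bases, shorter than a read. The longest ones are shown. Only exact identity between coding sequences of these members was sought. Stretches with mismatches, untranslated regions and other genes were not compared, so how far reads could be confused between paralogs was not tested. Letters are the coding strand of GENCODE transcripts on mm9, 5′ to 3′, with the shared stretch in capitals and 10 bases on each side in lower case. Positions are counted from 1 at the start codon, and the stretches are at 532 to 560 of Rbfox1, 724 to 752 of Rbfox2, 979 to 1007 of Elavl3 and 991 to 1019 of Elavl4.
Rbfox1: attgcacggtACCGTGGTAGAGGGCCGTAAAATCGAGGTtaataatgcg
Rbfox2: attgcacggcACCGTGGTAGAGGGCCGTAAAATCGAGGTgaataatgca
Elavl3: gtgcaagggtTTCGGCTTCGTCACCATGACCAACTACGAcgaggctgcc
Elavl4: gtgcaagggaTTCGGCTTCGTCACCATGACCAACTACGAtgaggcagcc
Rbfox1 and Rbfox3 shared at most 20 bases, Rbfox2 and Rbfox3 14, Nova1 and Nova2 15, Elavl2 and Elavl3 17, and Elavl2 and Elavl4 23.

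In the mm9 genome, Rbfox1 lies at chr16:6809315-7412572 on the plus strand, Rbfox2 at chr15:76909420-77137483 on the minus strand and Rbfox3 at chr11:118351074-118772911 on the minus strand. Nova1 lies at chr12:47795504-47919762 on the minus strand and Nova2 at chr7:19510698-19551031 on the plus strand. Elavl2 lies at chr4:90917454-91066675, Elavl4 at chr4:109876327-110024514, Elavl3 at chr9:21819449-21856467 and Celf4 at chr18:25636133-25912484, all on the minus strand. All are protein-coding genes. Their spans ran from 37019 bases for Elavl3 to 603258 bases for Rbfox1, against merged exon lengths of 3998 bases for Celf4 to 9014 bases for Nova2. Nova2 alone shared exonic sequence with another gene, 2652 bases on the opposite strand with the noncoding gene Gm17370, which was listed at 0 counts in all 15 libraries. The library kit did not mark strand, so reads from that stretch cannot be assigned to a strand. Whether reads from that stretch were counted for Nova2 or left uncounted was not tested. The level of Nova2 per length, given below, still divides by all 9014 bases.

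Libraries held between 35731428 and 62555543 counted reads. Fos, Arc and Egr2, early genes that neuronal activity induces, were higher after FC and after RT than in CC, with log2 fold changes of 2.36 and 2.05 for Fos, and all 3 passed the test in both comparisons. FC3 and RT3 stood apart from the other 13 libraries. The interquartile range of relative log expression, each gene's log count less its median over the libraries, was 0.828 in FC3 and 0.436 in RT3 and at most 0.117 elsewhere. Of the 13748 genes with a mean normalized count of at least 100, FC3 was below all 13 other libraries for 43.4% and above all of them for 42.0%, and RT3 was below for 34.3% and above for 40.3%. FC3 also had the highest summed level of the interneuron, astrocyte, oligodendrocyte, microglia and endothelium markers of any library. RT3 was the highest RT library for each of these lists and above every CC library. Its oligodendrocyte markers, for example, summed to 1216 RPKM, against at most 902 RPKM in CC. The 6 interneuron markers summed to 1100 RPKM in FC3 and to 441.9 to 698.4 RPKM in the other 14 libraries, whereas the 10 neuron markers, at 1856 to 2067 RPKM in all 15, did not set FC3 apart. Markers of the choroid plexus, an epithelium that borders the hippocampus, differed between groups, with a summed level of 43.5 to 772 RPKM in FC, 22.5 to 207 RPKM in RT and 13.7 to 23.8 RPKM in CC. The part of these differences in the values below was not tested, and in whole tissue fewer cells of a type cannot be told apart from less RNA per cell.

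Levels between genes were compared as RPKM, reads scaled to merged exon length and to library size. Celf4 was the most abundant of the 9, at 123 ± 8.62 RPKM in FC, 130 ± 3.82 RPKM in RT and 129 ± 3.59 RPKM in CC (SD, n = 5 each). Its mean over 15 libraries, 127.5 RPKM, was at the 98.2th percentile of the tested genes. Rbfox1 followed at a mean of 97.0 RPKM, then Elavl3 at 69.0, Rbfox3 at 54.9 and Rbfox2 at 39.2 RPKM. The remaining 4 genes lay lower, with means of 10.8 RPKM for Elavl2, 9.37 for Elavl4, 8.81 for Nova2 and 5.88 for Nova1, the last at the 55.2th percentile. Celf4 was above Rbfox1, Rbfox3 above Rbfox2 and Rbfox2 above Elavl2 in every library, with ranges that did not overlap. Rbfox1 was above Elavl3 in 14 of 15 libraries, FC3 being the exception. Lower down, neighbours in the order were less clearly apart, with Elavl2 above Elavl4 in 12 of 15 libraries and Elavl4 above Nova2 in 9 of 15, both with overlapping ranges. The RPKM of Nova2 would be too low if reads from its exonic stretch shared with another gene were left uncounted. This was not tested, so the place of Nova2 below Elavl2 and Elavl4 was not settled. The order depended on the length used for Rbfox3 alone among the upper 5 genes. Divided by its longest transcript of 3150 bases in place of 5820 bases of merged exons, Rbfox3 had a mean of 101.4 RPKM.

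**Figure D1:**
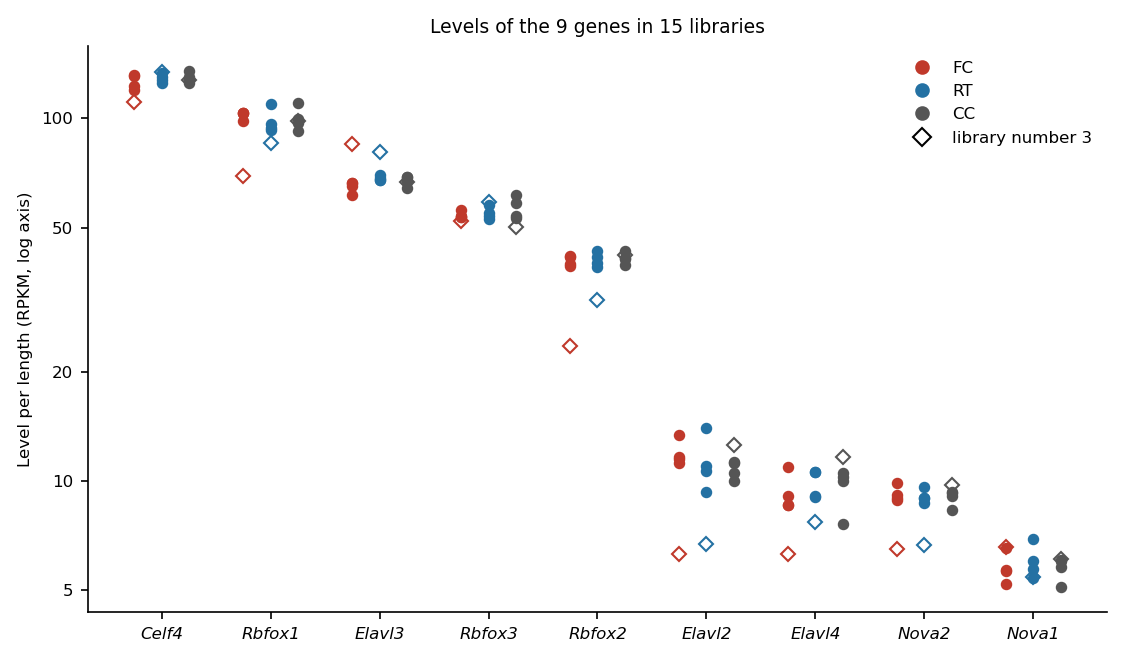
Level per length (RPKM, log axis) of each gene in the 15 libraries, ordered by mean, with FC in red, RT in blue and CC in grey and libraries numbered 3 as open diamonds. Celf4 and Rbfox1 are highest at means of 127.5 and 97.0 RPKM and Nova1 lowest at 5.88 RPKM, and the open red diamond, FC3, lies apart from the other FC libraries for Rbfox1, Rbfox2, Elavl2, Elavl3, Elavl4 and Nova2.

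Within families the shares of summed RPKM were alike in the 3 groups. Rbfox1 made up 51.1% ± 1.93 of the Rbfox RPKM in FC, 50.2% ± 2.24 in RT and 50.7% ± 1.07 in CC (SD, n = 5 each). Rbfox2 made up 19.8% ± 1.97 in FC, 20.5% ± 1.91 in RT and 21.1% ± 1.26 in CC. Elavl3 made up 77.7% ± 5.43 of the neuronal Elavl RPKM in FC, 78.2% ± 4.26 in RT and 76.1% ± 1.87 in CC, and Nova2 made up 59.2% ± 5.93 of the Nova RPKM in FC, 59.1% ± 3.47 in RT and 61.2% ± 2.45 in CC. The differences between group means were smaller than the SD within a trained group for each of these shares. The size of the shares depends on the use of merged exon length. The share of Nova2 would also be too low if reads from its stretch shared with another gene were left uncounted, which was not tested. By longest transcript the CC means were 102.0 RPKM for Rbfox1, 102.5 for Rbfox3 and 43.6 for Rbfox2, so that Rbfox1 was no longer above Rbfox3. Elavl2 and Elavl4 had means of 14.0 and 12.2 RPKM by that length, which lowers the share of Elavl3.

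Comparisons between groups used counts scaled by the upper quartile of each library (UQ counts) and then a model with 5 factors of unwanted variation (RUVs factors), estimated from the deviations of libraries within their own group. Rbfox1, a splicing regulator of neurons and muscle, stood among the genes that the study used as positive controls for RT. It had 14971, 21224, 22414, 22434 and 22319 UQ counts in FC3, FC5, FC6, FC7 and FC8. In RT3, RT5, RT6, RT7 and RT8 it had 18541, 20824, 20104, 20353 and 23755. In CC3, CC5, CC6, CC7 and CC8 it had 21317, 19947, 21068, 21610 and 23913. The groups overlapped, with FC3 and RT3 below all other libraries and the number 8 library the highest of RT and of CC. The means were 20672 ± 3227 in FC, 20715 ± 1903 in RT and 21571 ± 1453 in CC (SD, n = 5 each).

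With the RUVs factors in the model, the log2 fold change of Rbfox1 was -0.03 ± 0.035 (SE) for RT vs CC, a change of -2.19% with a 95% interval of -6.74% to 2.58%, and the edgeR likelihood ratio test gave an adjusted p of 0.814 (n = 5 libraries each). For FC vs CC it was -0.01 ± 0.035, with an adjusted p of 0.954 and an interval of -5.11% to 4.34%. For FC vs RT it was 0.02 ± 0.035, with an adjusted p of 0.868. None of these passed the threshold of 0.01. With UQ scaling alone and without FC3 and RT3, the RT vs CC value was -0.02 ± 0.063 in edgeR. Within library numbers, the log2 ratio of UQ counts of Rbfox1 was below 0 at 4 of 5 numbers for RT over CC (-0.20 to 0.06) and at 2 of 5 for FC over CC (-0.51 to 0.09). Same-numbered libraries of CC did not deviate together with those of FC or RT. Counts of numbers against CC, here and for the genes below, are therefore descriptions and not paired replicates.

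**Figure D2:**
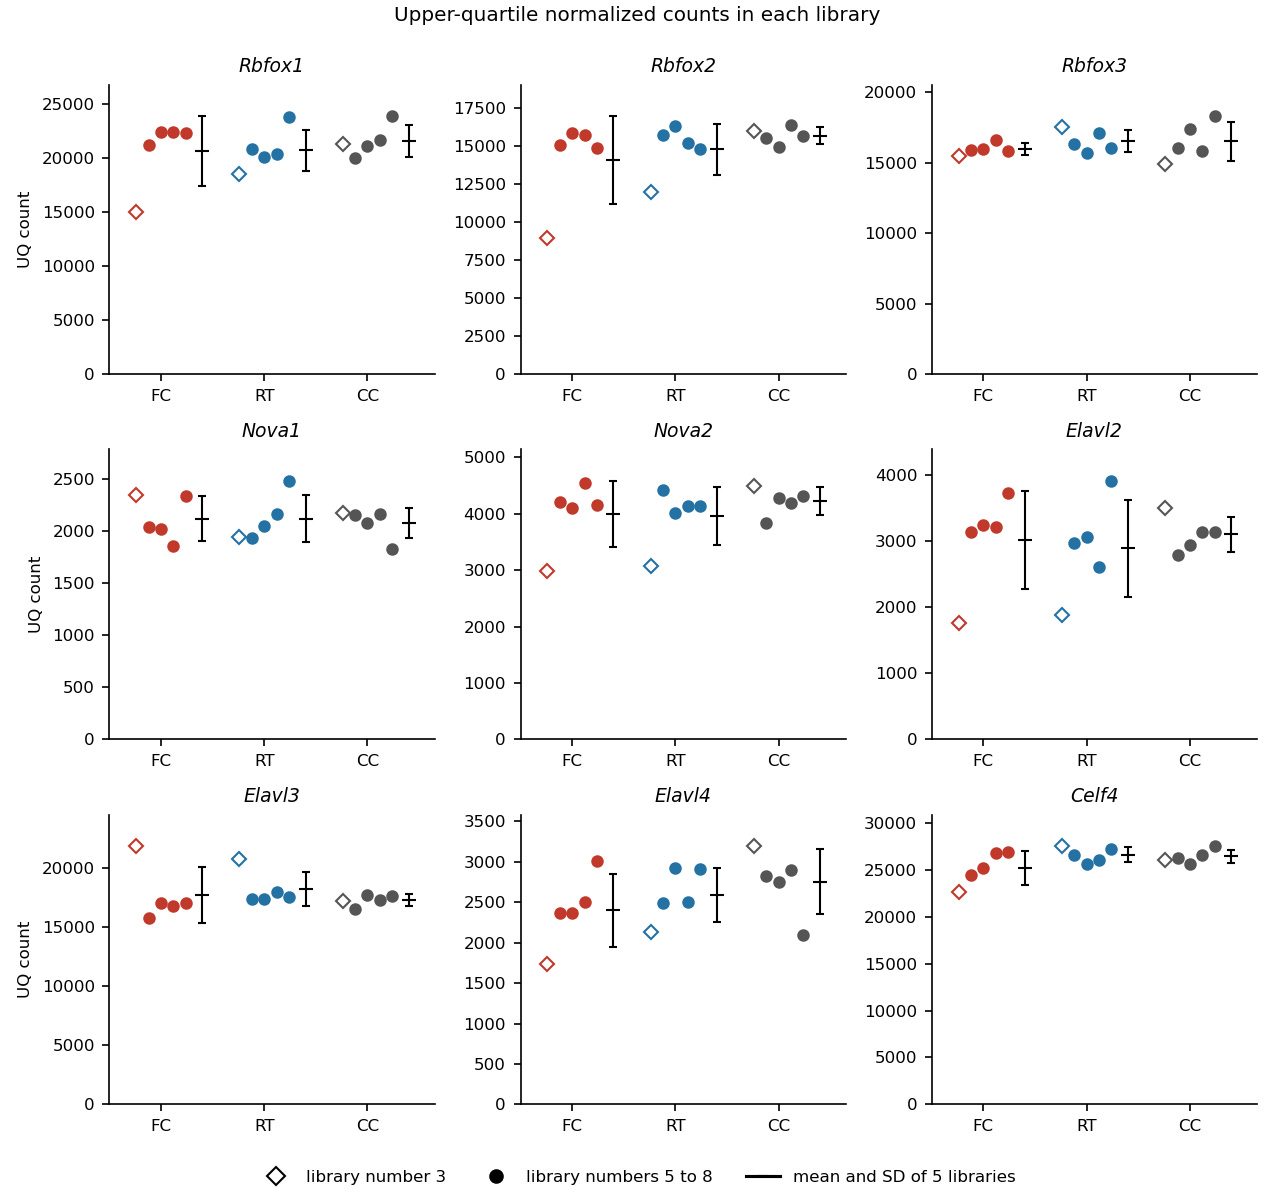
UQ count (axes from 0) of each gene in the 5 libraries of FC, RT and CC, left to right, with libraries numbered 3 as open diamonds and the mean and SD of each group in black. The groups overlap for all 9 genes in each comparison, and FC3 is the lowest library for Rbfox1 (14971), Rbfox2 (8944), Nova2 (2988), Elavl2 (1755), Elavl4 (1737) and Celf4 (22618) and the highest for Elavl3 (21897).

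On the UQ scale no comparison had separate groups for any of the 9 genes, and of all tested genes 0.861% were separate in FC vs CC, 1.29% in RT vs CC and 0.211% in FC vs RT. Rbfox2, the family member that is also expressed widely outside the nervous system, had 8944, 15039, 15841, 15736 and 14887 UQ counts in FC3, FC5, FC6, FC7 and FC8. It had 11966, 15711, 16284, 15165 and 14795 in RT3, RT5, RT6, RT7 and RT8. In CC3, CC5, CC6, CC7 and CC8 it had 15963, 15511, 14910, 16381 and 15664. FC3 and RT3 were far below the rest, and the other libraries of the 3 groups overlapped. With the RUVs factors the change for FC vs CC was -0.07 ± 0.022 on the log2 scale, or -4.57% with an interval of -7.37% to -1.69%, at an unadjusted p of 0.00207 and an adjusted p of 0.0470 in the edgeR likelihood ratio test, which misses the threshold of 0.01. RUVs-normalized counts of Rbfox2 were 14269 to 14400 in FC, 14510 to 14966 in RT and 14895 to 15023 in CC, so that FC overlapped neither RT nor CC. Rbfox2 was the only one of the 9 without overlap on this scale, and only in these 2 comparisons. Of all tested genes, 11% had groups that did not overlap in FC vs CC, 6.28% in RT vs CC and 7.17% in FC vs RT. The SD of the RUVs-normalized counts, 55.1 in FC and 54.6 in CC, was below the square root of their means (119.6 and 122.4), the spread that counting alone would give, so this scale understates the spread between libraries. Within library numbers, the log2 ratio of its UQ counts for FC over CC was below 0 at 4 of 5 numbers, at -0.84 for number 3 and -0.07 to 0.09 for the others. The estimate was about the same with FC3 left out alone, -0.06 on the log2 scale, but the edgeR adjusted p was then 0.200. Without FC3 and RT3 together the estimate was -0.03 ± 0.024 with an adjusted p of 0.503. The change for RT vs CC was -0.02 ± 0.022 at an adjusted p of 0.854, and for FC vs RT -0.05 ± 0.022 at an adjusted p of 0.340, both in edgeR.

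Rbfox3, found in nearly all mature neurons, was the steadiest of the family across the FC libraries. It had 15504, 15870, 15966, 16610 and 15864 UQ counts in FC3, FC5, FC6, FC7 and FC8. In RT3, RT5, RT6, RT7 and RT8 it had 17538, 16312, 15694, 17123 and 16058. In CC3, CC5, CC6, CC7 and CC8 it had 14944, 16010, 17410, 15823 and 18342. FC and RT lay inside the range of CC, and FC3 and RT3 lay inside the range of the other 13 libraries. The log2 fold changes with the RUVs factors were -0.05 ± 0.033 for FC vs CC, -0.02 ± 0.033 for RT vs CC and -0.03 ± 0.033 for FC vs RT, at edgeR adjusted p of 0.523, 0.916 and 0.821. With 1 library left out the FC vs CC value of Rbfox3 ran from -0.08 (without CC3, at an edgeR adjusted p of 0.0386) to -0.01 (without CC8).

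Of the Nova genes, Nova1 was among the 625 genes that the study took as negative controls, from which the RUVs factors are computed. It had 1858 to 2348 UQ counts in FC (median 2040), 1937 to 2484 in RT (median 2052) and 1831 to 2175 in CC (median 2157). Its log2 fold changes were -0.01 ± 0.043 for FC vs CC, 0.02 ± 0.043 for RT vs CC and -0.02 ± 0.043 for FC vs RT. They were the same to 2 decimals with Nova1 taken out of the negative controls, a weak check, since 1 of 625 genes could move the factors little. The SD of its RUVs-normalized counts was below the square root of their mean in FC (38.7 against 45.6) and CC (26.0 against 45.8), as for Rbfox2. Nova2, the Nova gene that prevails in the forebrain, had 2988 to 4541 UQ counts in FC (median 4151), 3080 to 4426 in RT (median 4129) and 3826 to 4495 in CC (median 4285). Its lowest libraries were FC3 and RT3, and the other 8 trained libraries lay between 4017 and 4541. Its log2 fold changes were -0.01 ± 0.051 for FC vs CC, -0.05 ± 0.050 for RT vs CC and 0.04 ± 0.050 for FC vs RT. The edgeR adjusted p of the 2 genes lay between 0.778 and 0.964.

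Among the neuronal Elavl genes, Elavl4 (HuD), which stabilizes mRNAs such as that of the growth-cone protein GAP-43, had the largest change of all 9 genes in the model with RUVs factors. It had 1737, 2370, 2362, 2506 and 3015 UQ counts in FC3, FC5, FC6, FC7 and FC8. In RT3, RT5, RT6, RT7 and RT8 it had 2128, 2490, 2923, 2508 and 2909. In CC3, CC5, CC6, CC7 and CC8 it had 3200, 2826, 2749, 2900 and 2098. FC was below CC at 4 of the 5 library numbers, and at number 8 the order was the other way, with FC8 the highest FC library and CC8 the lowest CC library. The mean was 2398 ± 456 in FC and 2755 ± 405 in CC (SD, n = 5 each). With the RUVs factors the change for FC vs CC was -0.14 ± 0.049 on the log2 scale, or -9.07% with an interval of -14.9% to -2.83%, at an unadjusted p of 0.00502 and an adjusted p of 0.0849 in edgeR. Whether Elavl4 passed depended on the libraries and on the number of RUVs factors. Without CC8 the change was -0.24 at an adjusted p of 0.000686, without FC8 -0.19 at 0.00438 and without RT8 -0.15 at 0.00791, each past the threshold in edgeR. With all libraries and 10 RUVs factors it also passed, at -0.15 and 0.00160, and with only FC and CC in the model it was -0.15 at 0.0122. Without all libraries numbered 3 it was -0.09 at 0.247. With UQ scaling alone it was -0.20 at an adjusted p of 0.966. For RT vs CC the change was -0.03 ± 0.049 at an adjusted p of 0.880, and -0.14 at 0.175 without CC8, and for FC vs RT it was -0.10 ± 0.049 at 0.395.

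**Figure D3:**
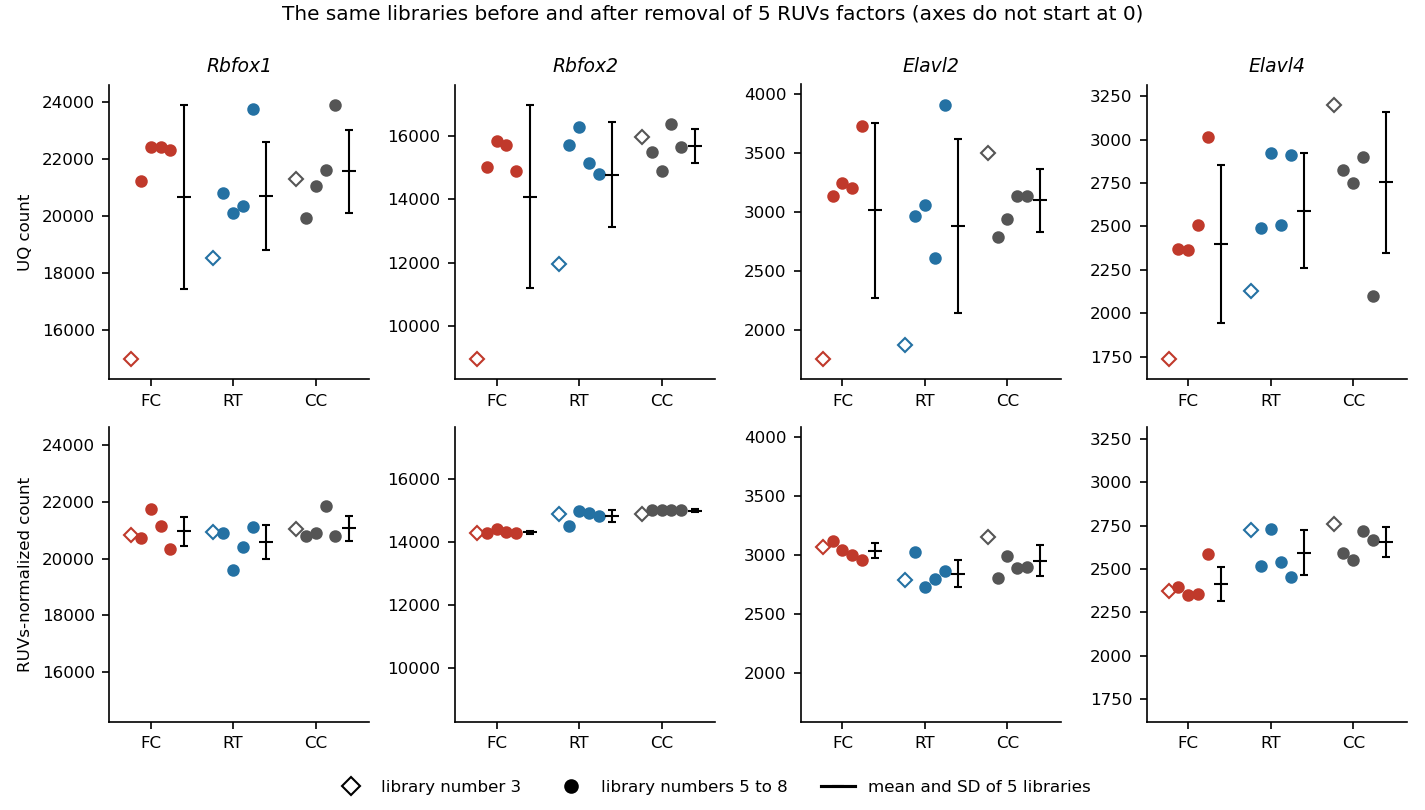
UQ counts (upper row) and counts after removal of the 5 RUVs factors (lower row) for Rbfox1, Rbfox2, Elavl2 and Elavl4 in FC, RT and CC, with the same axis in both rows of a gene and axes that do not start at 0. The open diamonds of FC3 and RT3, low in the upper row (8944 and 11966 for Rbfox2), lie with the other libraries in the lower row (14272 and 14882).

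Elavl2 (HuB) had 1755, 3139, 3245, 3209 and 3731 UQ counts in FC3, FC5, FC6, FC7 and FC8. In RT3, RT5, RT6, RT7 and RT8 it had 1876, 2968, 3061, 2610 and 3912, and in CC3, CC5, CC6, CC7 and CC8 3500, 2791, 2940, 3142 and 3137. It was the most variable of the 9 over all 15 libraries, with a coefficient of variation of 19.5%. Over the 13 libraries without FC3 and RT3 its coefficient was 11.3%, below the 11.8% of Elavl4. Relative to the mean of the other 4 libraries of its group, FC3 stood at -47.3% and RT3 at -40.2% for Elavl2. The change with the RUVs factors was 0.10 ± 0.045 on the log2 scale for FC vs RT, at an unadjusted p of 0.031 and an adjusted p of 0.396 in edgeR. Without RT8, the highest RT library, it was 0.17 at an adjusted p of 0.0518. In FC vs CC it was 0.04 ± 0.045 at an adjusted p of 0.721, and in RT vs CC -0.05 ± 0.045 at 0.738, also in edgeR.

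Elavl3 (HuC), the most abundant of the neuronal Elavl genes, was the only one of the 9 with FC3 and RT3 above all other libraries, at 21897 and 20785 UQ counts. The other 4 FC libraries had 15809 to 17021, the other 4 RT libraries 17370 to 17978, and the CC libraries 16506 to 17721 UQ counts. The log2 fold changes with the RUVs factors were -0.04 ± 0.031 for FC vs CC, 0.04 ± 0.031 for RT vs CC and -0.07 ± 0.031 for FC vs RT. The last had an unadjusted p of 0.024 and an adjusted p of 0.366 in edgeR, and without FC3 and RT3 it was -0.07 at an adjusted p of 0.265.

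Celf4 had 22618, 24489, 25162, 26790 and 26847 UQ counts in FC3, FC5, FC6, FC7 and FC8. It had 25655 to 27490 in RT (median 26560) and 25632 to 27573 in CC (median 26279). The 3 lowest of the 15 libraries were FC libraries, while FC7 and FC8 lay inside the range of CC. The change for FC vs CC was -0.06 ± 0.039 on the log2 scale with an interval of -8.72% to 1.42%, for RT vs CC 0.01 ± 0.039 and for FC vs RT -0.06 ± 0.038. The edgeR adjusted p values were 0.507, 0.967 and 0.575.

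Read against all tested genes, none of the 9 passed an adjusted p of 0.01 in the edgeR likelihood ratio test in any comparison. Of the 18008 tested genes, 2.24% passed in FC vs CC, 1.01% in RT vs CC and 0.122% in FC vs RT. With UQ scaling alone none of the 9 passed either, where 0.189%, 0.106% and 0% of tested genes did in these comparisons, and none of the 9 had an unadjusted p under 0.05, where 3.07%, 1.39% and 0.677% of tested genes did. At an unadjusted p under 0.05 with the RUVs factors, 2 of the 9 stood in FC vs CC (Rbfox2 and Elavl4), against 16.5% of tested genes, none in RT vs CC, against 11%, and 4 in FC vs RT (Rbfox2, Elavl2, Elavl3 and Elavl4), against 10.7%. DESeq2 and the quasi-likelihood test of edgeR with the same factors also passed none of the 9. At an unadjusted p under 0.05, FC vs CC had 2 members by either tool, beside 1785 of all tested genes by DESeq2 and 2765 by the quasi-likelihood test. RT vs CC had no member, beside 1161 and 1861 genes. FC vs RT had 2 members by DESeq2 and 4 by the quasi-likelihood test, beside 1057 and 1811 genes. Since the numbers were taken to pair FC and RT libraries, the FC vs RT count was also taken with the number as a block. This passed 82 genes in place of 22 and none of the 9, with 3 members and 2144 genes at an unadjusted p under 0.05. Those 3 were Elavl2, Elavl3 and Elavl4, while Rbfox2 stood at an unadjusted p of 0.061 in this edgeR likelihood ratio test. Without the block, the count of 4 members in FC vs RT stayed 4 with any 1 CC library left out. CC is not compared there and enters only through the shared factors and spread, so this is a weak check. With 1 FC library left out the count was 1 (FC3), 0 (FC5, beside 1650 genes), 3 (FC6 and FC8) and 4 (FC7). With 1 RT library left out it was 2 (RT3, RT6 and RT7) and 4 (RT5 and RT8). It was 0 with 1 RUVs factor (1053 genes). It was 1 with TMM factors, without FC3 and RT3 (2259 genes) and without all libraries numbered 3 (2590 genes).

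**Figure D4:**
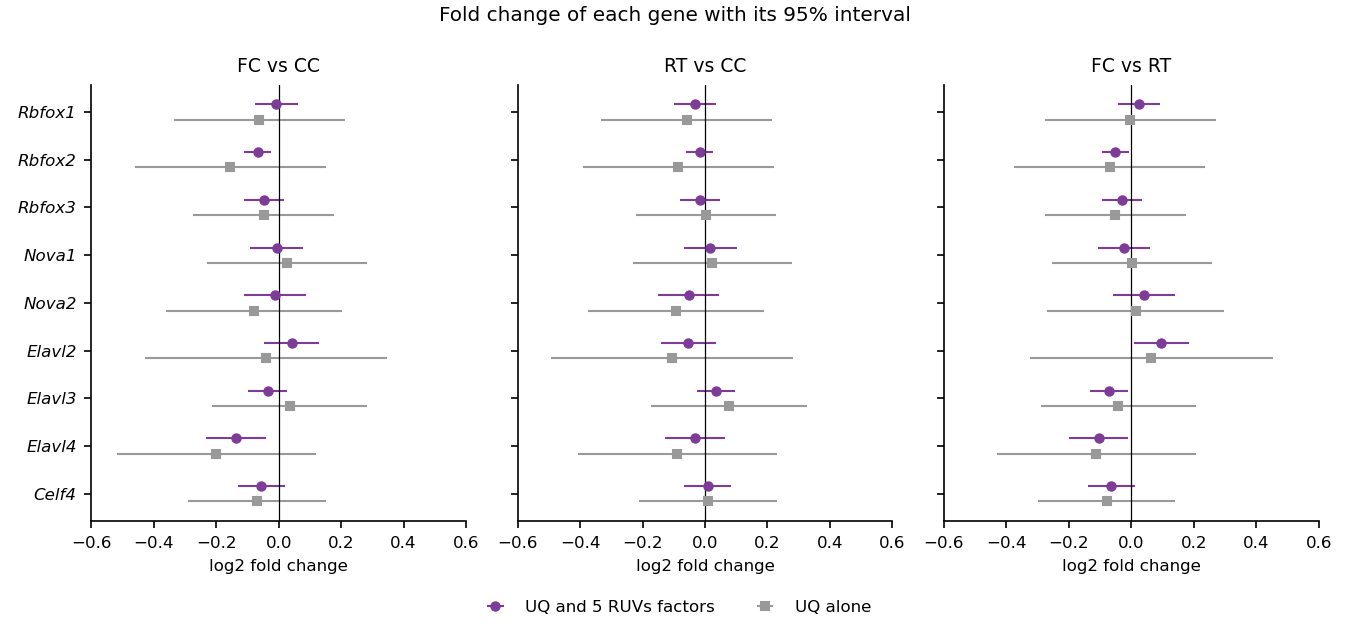
Log2 fold change with its 95% interval for each gene in FC vs CC, RT vs CC and FC vs RT (5 libraries a group), in the model with UQ scaling and 5 RUVs factors (purple circles) and with UQ scaling alone (grey squares). All purple estimates lie between -0.14 and 0.10, and the grey intervals are wider and all include 0.

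The 95% intervals over the 9 genes ran from -14.9% to 9.48% for FC vs CC, from -9.97% to 7.29% for RT vs CC and from -12.9% to 13.6% for FC vs RT with the RUVs factors. With UQ scaling alone they ran from -30.2% to 27.2%, -29.0% to 25.4% and -25.8% to 36.9%. The median log2 fold change of the 9 was -0.04 in FC vs CC, -0.02 in RT vs CC and -0.03 in FC vs RT, beside -0.01 for FC vs CC and FC vs RT and a value that rounds to 0 for RT vs CC over all tested genes. FC shares its libraries between 2 of these comparisons, as do RT and CC, so the 3 columns are not independent. The choroid plexus markers given above moved with FC, 5 of 6 (Ttr, Folr1, Kcnj13, Clic6 and Aqp1) passing the test for FC vs CC with a higher level, and their part in the members' values was not tested.

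Across the 15 libraries, Rbfox1 varied most closely with Npy2r, Cpne4 and Stim2 among all tested genes (Pearson r of log2 UQ counts 0.982, 0.979 and 0.972). Over the 12 libraries not numbered 3 the closest were Mmd, Npy2r and Tgfa (0.945, 0.939 and 0.937). Between members, Rbfox1 had r of 0.84 with Rbfox2 and 0.88 with Elavl2 over 15 libraries, and -0.20 and 0.73 over the 12. Elavl2 and Elavl3 had r of -0.83 over 15 libraries and -0.09 over the 12, so the opposed movement of these genes rested on the libraries numbered 3. All of these are descriptions over libraries that share the scaling and the lanes.

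Other RNA-binding proteins were read from lists of named genes. Of 20 other splicing regulators of brain (the remaining Celf genes and the Mbnl, Ptbp, Khdrbs, Srrm and Msi genes, Qk and Elavl1), 19 were tested, and 1 passed with the RUVs factors in FC vs CC, with a lower level, and none in RT vs CC or FC vs RT. It was Srrm4, a neural activator of microexons. Srrm4 had 946, 2645, 2780, 2769 and 2800 UQ counts in FC3, FC5, FC6, FC7 and FC8, against 3052, 2753, 2701, 3301 and 2707 in CC3, CC5, CC6, CC7 and CC8. The groups overlapped, with FC3 far below the rest. Its log2 fold change was -0.15 ± 0.038 with an adjusted p of 0.00405 in edgeR. This call was lost with UQ scaling alone (-0.28, adjusted p 0.966), in DESeq2 (-0.14, 0.0281), and without FC3 and RT3 together (-0.10, 0.151), and it held in 14 of 35 alternatives. The median log2 fold change of the list was -0.01 in FC vs CC, -0.02 in RT vs CC and 0.01 in FC vs RT.

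Of 22 genes of RNA transport and translation (among them the Fmr1 and Cpeb families, Stau and Igf2bp genes, and stress granule proteins), 21 were tested and none passed in any comparison. For RT vs CC, Tia1, a stress granule protein, had a log2 fold change of -0.08 ± 0.040 and an adjusted p of 0.449 in edgeR. Of 16 mRNAs described as targets of these protein families, all 16 were tested and none passed in any comparison with the 5 RUVs factors. Kcnj6, which encodes a potassium channel, came nearest in RT vs CC at -0.17 ± 0.049 and an adjusted p of 0.032, and Cacna1c, which encodes a calcium channel subunit, had 0.11 ± 0.040 and 0.184 there and 0.14 ± 0.040 and 0.0143 in FC vs CC, all in edgeR. Kcnj6 had 958 ± 269 UQ counts in RT and 1207 ± 113 in CC, and Cacna1c 2540 ± 956 in FC and 2544 ± 317 in CC (SD, n = 5 each). The UQ counts of both overlapped between the groups, and for Cacna1c the UQ means were nearly equal. Both stood near the threshold. Cacna1c passed in FC vs CC in 8 of 35 alternatives, among them TMM factors (0.15, adjusted p 0.00391), 10 RUVs factors (0.16, 0.00133), without all libraries numbered 3 (0.20, 0.000892) and without CC8 (0.21, 9.8e-05), while with UQ scaling alone it was at a log2 fold change that rounds to 0. In RT vs CC, Cacna1c passed in 1 of 35, without CC8 (0.18, 0.00411). Kcnj6 passed in RT vs CC in 3 of 35, with only RT and CC in the model (-0.20, 0.00681), without CC7 (-0.19, 0.00715) and at a threshold of 0.05.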

How the data were processed

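PolyA RNA of the hippocampus was sequenced as paired reads of 100 bases in 15 libraries, 5 each of FC, RT and CC, with 3 libraries, 1 of each condition, in a lane. The authors aligned the reads to mm9 with GSNAP, kept pairs that mapped uniquely and concordantly, and used HTSeq 0.6.1 to count pairs over Ensembl 65 genes, and the deposited values are these raw counts, not normalized. All 37310 identifiers matched GENCODE vM1, the annotation of that release, which gave symbols, positions and lengths. Precision is limited by the spread between libraries more than by depth, since each member had at least 1737 UQ counts in every library.

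Genes entered the test if more than 5 libraries had over 10 reads (18008 genes), in R 4.3.3 with edgeR 4.0.16, in a generalized linear model of all 15 libraries with UQ factors, group and 5 RUVs factors, by likelihood ratio test with Benjamini-Hochberg adjustment over all tested genes and a threshold of 0.01. RUVs was written from its published algorithm with the study's 625 negative control genes. Standard errors are the log2 fold change over the root of the likelihood ratio, and 95% intervals are 1.96 SE each way. RPKM is the UQ count over exon length and the mean library total. The code was tested on simulated counts. Residual degrees of freedom were 7 with the RUVs factors and 12 without. The common coefficient of variation between libraries, estimated by edgeR beyond counting error, was 0.0451 with the RUVs factors and 0.203 without.

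Library numbers are in the labels of all groups. Same-numbered FC and RT libraries deviated together from their group means over all tested genes (5 correlations of 0.254 to 0.870), and were taken as pairs because all 5 were above 0.1. That cutoff is a weak one, since libraries of different numbers had a median of 0.140, above it, and reached 0.512. The same number was the best match for 4 of 5 FC libraries. Without number 3 the range was 0.0929 to 0.481, with the best match for 3 of 4, so the pairing rests in part on number 3. The FC vs RT values given for each gene are from the fit without pairs, except where a block is named. With CC, same-numbered libraries did not deviate together (-0.313 to 0.241 for FC, -0.326 to 0.0937 for RT). Which animals, days or lanes a number stands for is not given in the sources used here. Each lane held 1 library of each condition, but whether these had the same number is not stated. No 2 libraries of a group agreed within sampling noise.

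All 9 members are named. Of the other lists, genes past the threshold are named, or else the 2 with the smallest p in RT vs CC, and likeness is given for Rbfox1. A gene that this rule also names is not reported here. The members and lists were chosen with earlier results of these data known, though the rule for the members uses names alone. The lists of neurons, astrocytes and other cell types served as summed levels, and of their genes only those past the threshold, all of the choroid plexus, are named. Alternatives were DESeq2 1.42.0, the quasi-likelihood test, TMM factors, other numbers of RUVs factors and other controls, other filters and thresholds, subsets of libraries and a block for library number. UQ fits without FC3 and RT3, and without all libraries numbered 3, were added after seeing the data.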

Additional observations from a re-analysis of the deposited data

Results flagged for a closer look

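Of the 27 groups of 5 libraries formed by 9 genes and 3 conditions, 6 had a library at one end that stood far from the other 4 by Dixon's ratio. The nominal rate of about 1 in 20 holds for independent groups, whereas the 9 genes share the same libraries. The share of such groups over all tested genes was not taken, so the 6 are not read as a trait of these genes. FC3 was the lowest FC library for Rbfox1 (14971 UQ counts), Rbfox2 (8944) and Nova2 (2988), and the highest for Elavl3 (21897). RT3 was the highest RT library for Elavl3 (20785). CC8 was the lowest CC library for Nova1 (1831 UQ counts). FC3 and RT3 are the libraries that stand apart over all genes, and the source of that difference was not tested.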

How the results depend on the processing

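Each comparison was repeated under 35 alternatives. Of the 27 member results, 2 passed a threshold under at least 1 of them, both in FC vs CC. Elavl4 passed with 10 RUVs factors (-0.15, adjusted p 0.00160) and without CC8, FC8 or RT8, and Rbfox2 passed only at a threshold of 0.05. No called value changed sign, and 81 of 945 member estimates, none of them past a threshold, had the other sign. No member passed in RT vs CC or FC vs RT under any alternative. The count of members called in FC vs CC was 1 with 10 factors and at 0.05, and 0 to 1 with 1 library left out. The cause of these differences was not tested, apart from the threshold. Rbfox3 had a mean level of 101.4 RPKM by its longest transcript.

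Genes called in FC vs CC (403 in all) numbered 34 with UQ scaling alone, 161 with DESeq2, 98 with the quasi-likelihood test and 11 with that test and UQ alone, 122 with 1 factor, 176 with 3 factors, 815 at a threshold of 0.05, 821 without all libraries numbered 3, and 107 and 98 with UQ alone without FC3 and RT3 and without all libraries numbered 3. Leaving out 1 library gave 241 (FC5) to 624 (CC8). In RT vs CC (182) they numbered 19 with UQ alone, 85 with DESeq2, 66 and 11 with the quasi-likelihood test, 85 with 1 factor, 311 at 0.05, and 67 and 62 with UQ alone without the same libraries. Leaving out 1 library gave 142 (RT5) to 266 (CC8).

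In FC vs RT (22) they numbered 0 with UQ alone (122 at an unadjusted p under 0.05), 3 with DESeq2, 0 and 0 with the quasi-likelihood test with factors (1811 at an unadjusted p under 0.05) and with UQ alone (164), 0 with 1 factor (1053), 1 with 3 factors, 112 with 10 factors, 39 with all genes as controls, 98 at 0.05, 50 without FC3 and RT3, 110 without all libraries numbered 3, 94 with only these groups, and 0 with UQ alone without either set of libraries (883 each). Leaving out 1 library gave 3 (FC5) to 93 (RT8).

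With library number as a replicate block and UQ alone, 45 genes passed in FC vs CC, 27 in RT vs CC and 0 in FC vs RT (169 at an unadjusted p under 0.05), and with the RUVs factors 82 passed in FC vs RT. The block changed the call of none of the 9 genes.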
